A study of Mus musculus with 4 samples.

Results

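Chemokine receptors, a chemokine and genes of lymphocyte exit from tissue were examined in mouse T-cell progenitors. The genes were chosen by symbol, with earlier results of these data known. They were the chemokine receptors Ccr2, Ccr7, Ccr9, Cxcr4 and Cxcr6, the chemokine Ccl5, the sphingosine 1-phosphate receptor S1pr1 and the transcription factor Klf2. They are 8 of the 31053 genes in the deposited lists, and each symbol matched a single gene. Bone marrow progenitors were grown on OP9-Dll1, a stromal line that carries the Notch ligand Dll1, with IL-7 and Flt3-ligand at 10 ng/ml each, and T-cell progenitors were described by the submitters as early, Kit-high double-negative cells. In 1 arm, cells of B6.Bcl2 transgenic mice received MSCV-Runx1-mCherry or MSCV-empty-mCherry on day 2, were harvested on days 4 and 6, and were sorted as live, lineage-negative, mCherry+ CD45+ cells. In the other arm, B6.Cas9;Bcl2 cells received guides against Runx1 (E42-gRunx1-hNGFR) and Runx3 (E42-gRunx3-mTurquoise), 3 guide pairs per gene, or guides against luciferase. These were harvested on days 5 and 8 and sorted as lineage-negative, mTurquoise+ hNGFR+ CD45+ cells. The mice were 8 to 10 weeks old, and every cell of both arms carried the Bcl2 transgene, which keeps cells alive that would otherwise die, so the cultures are not a model of normal survival. The 2 experiments spanned 4 to 5 days of culture (experiment 1) and 4 to 8 days (experiment 2), with 1 mRNA library and 1 hashtag library each.

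A hashtag is an antibody-borne DNA barcode added to each culture so that its cells can be traced after pooling. The labels tie none of the 8 hashtags to a vector, guide or day, so the 8 were treated as samples of unknown condition, no condition was compared with another and no p-value is given. The sequences below identify the hashtags as they are numbered here, and they were the same in both experiments, where the number need not stand for the same culture.

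Hashtag 1: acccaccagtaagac
Hashtag 2: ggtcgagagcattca
Hashtag 3: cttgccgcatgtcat
Hashtag 4: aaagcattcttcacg
Hashtag 5: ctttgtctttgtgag
Hashtag 6: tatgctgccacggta
Hashtag 7: gagtctgccagtatc
Hashtag 8: tatagaacgccaggc

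Chemokine receptors are seven-pass membrane proteins that couple to inhibitory G proteins and steer cells along chemokine gradients. Progenitors that seed the thymus use CCR7, CCR9 and CXCR4, and CXCR4 and its ligand CXCL12 also hold progenitors in bone marrow and guide early thymocytes. Mature thymocytes leave through S1PR1, which senses sphingosine 1-phosphate, and KLF2 is the transcription factor known for switching S1pr1 on. CCR2 is best known on monocytes, CXCR6 on innate lymphoid, NK and tissue-resident T cells, and CCL5 is a chemokine made by activated lymphocytes and myeloid cells.

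Levels are given as unique molecular identifiers (UMIs) of the gene per 1000000 UMIs of all genes (CPM), summed over the cells of a hashtag. A hashtag was called in 8797 cells of experiment 1 (691 to 1291 per hashtag) and 8335 cells of experiment 2 (855 to 1312), and the summed depth was 14502385 to 38067298 and 22272716 to 42684236 UMIs per hashtag. The experiments shared 28 barcodes among called cells. CD45 mRNA (Ptprc) was detected in 90.4% to 97.2% of the cells of a hashtag and Kit in 43.0% to 82.8%, while Cd4 was near 0 (at most 0.270 CPM). Clusters of cells were named from markers, with the 8 genes kept out of the genes used for clustering. Some were of other classes than the labelled one: granulocyte or monocyte, dendritic, innate lymphoid or NK, mast or basophil, B lineage and stromal. All intervals are exact 95% intervals and cover counting error only. Ratios between hashtags compare ones picked or ordered by the same counts, and their intervals make no allowance for that. In summed values, fewer cells of a type and less RNA per cell cannot be told apart, and the cluster values below separate them only as far as the clusters do.

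The receptor genes lie in part side by side. On mouse chromosome 9 (GRCm38.p6 annotation of RefSeq), Ccr9 spans chr9:123767211-123783457, Cxcr6 chr9:123806477-123811754 and Ccr2 chr9:124101918-124109140, so 23019 bases part Ccr9 from Cxcr6 and 290163 part Cxcr6 from Ccr2. The other genes are Cxcr4 at chr1:128588199-128592299, S1pr1 at chr3:115710433-115715055, Klf2 at chr8:72319062-72321654, Ccl5 at chr11:83525778-83530518 and Ccr7 at chr11:99144199-99155077. Cxcr6 overlaps the annotated gene Fyco1, Ccr9 overlaps the noncoding gene Gm17021 and Ccl5 overlaps the noncoding gene Gm32650. Whether the counting used strand is not given in the sources used here.

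Because the study manipulated Runx1 and Runx3, the 250 bases before the start used in the RefSeq promoter table were searched for the Runx core letters TGTGGT and TGCGGT on both strands. The 2 differ in 1 letter, so no stretch matches both. For Ccr2 that start lies inside the gene's span given above, so the bases searched there fall within the span. Of the 5 genes in the promoter table (Ccr2, Ccr9, Cxcr4, Cxcr6 and Klf2), only Cxcr6 had a match, 1 on the reverse strand 10 bases before the start. Either motif occurs in 18.59% of 32851 promoters of that length. The sequence is shown because it holds the only match among these genes, and its capitals mark the match (chr9:123806227-123806476, plus strand).

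Cxcr6 promoter: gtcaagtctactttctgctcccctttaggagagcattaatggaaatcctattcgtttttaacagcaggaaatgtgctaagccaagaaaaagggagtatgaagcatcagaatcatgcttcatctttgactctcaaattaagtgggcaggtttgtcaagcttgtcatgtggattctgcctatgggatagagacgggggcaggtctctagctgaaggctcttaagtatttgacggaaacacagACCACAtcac

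The first question was how far the 8 genes ranged between hashtags. Of the 4 genes that averaged at least 5 CPM in experiment 1 (Ccr2, Cxcr4, Ccl5 and Klf2), all 4 had a highest hashtag at least 2-fold above the lowest, against 10.8% of the 8775 genes that passed the same filter. In experiment 2, Ccr7 passed as well, and 4 of 5 reached 2-fold, against 17.4% of 8784 genes. Cxcr4 stood at the threshold in both, with ratios of 2.00 (interval 1.79 to 2.23) and 1.90 (1.67 to 2.16). In experiment 1, leaving out hashtag 3 or hashtag 7 made it 1.88 or 1.74, and 3 of 4 genes reached 2-fold. The median ratio over all tested genes was 1.31 in experiment 1 and 1.38 in experiment 2, and over the members that passed it was 7.59 and 4.01. Since the 8 genes were chosen with earlier results of these data known, no conclusion about homing genes as a group is drawn from these contrasts. The genes below 5 CPM (Ccr9, Cxcr6 and S1pr1 in both experiments, Ccr7 in experiment 1) rest on few molecules, from 45 UMIs of Ccr9 to 979 of Ccr7 in experiment 1, so their ratios have wide intervals.

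**Figure D1:**
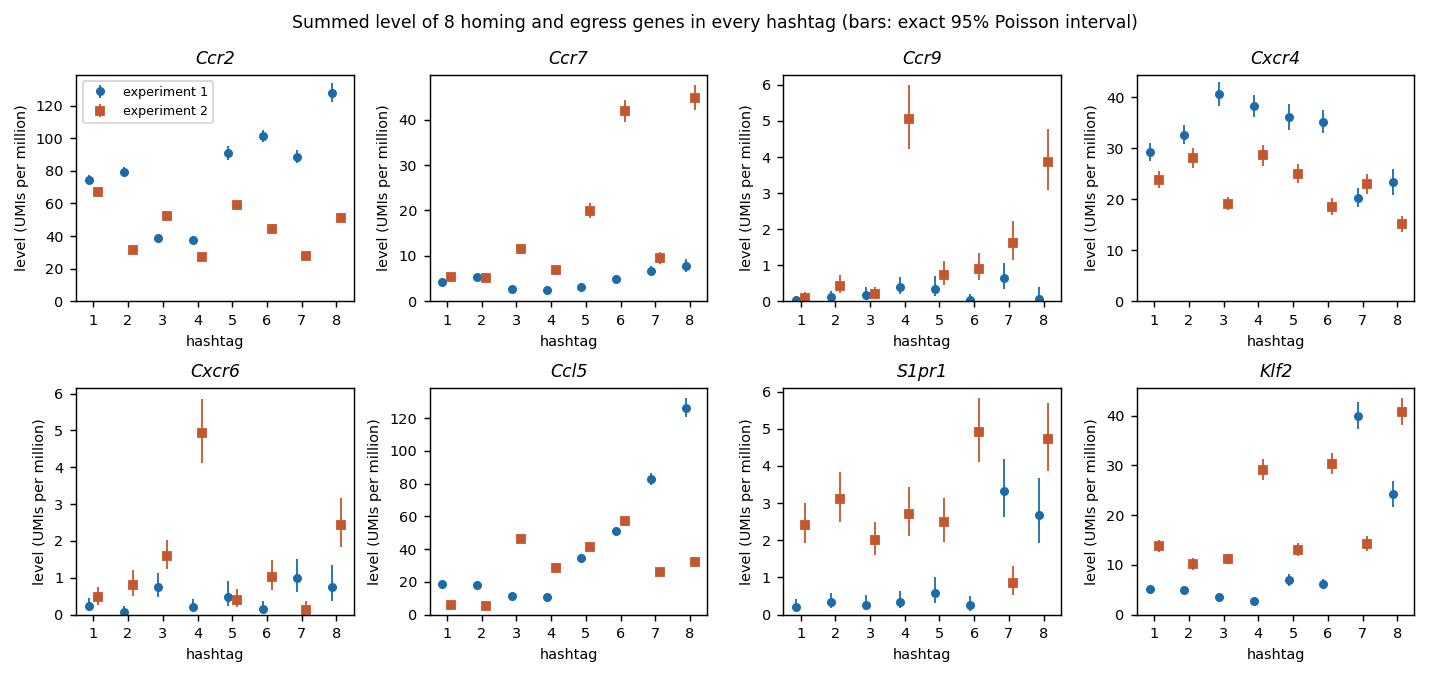
Level of each of the 8 genes (CPM, linear axes) in hashtags 1 to 8 of experiment 1 (circles) and experiment 2 (squares), with exact 95% Poisson intervals; the same hashtag number need not be the same culture in both. In experiment 1, Klf2 and S1pr1 are highest in hashtags 7 and 8 and Ccr2 is lowest in hashtags 3 and 4; in experiment 2, Ccr7 is highest in hashtags 6 and 8 and Ccr9 and Cxcr6 in hashtag 4.

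**Figure D2:**
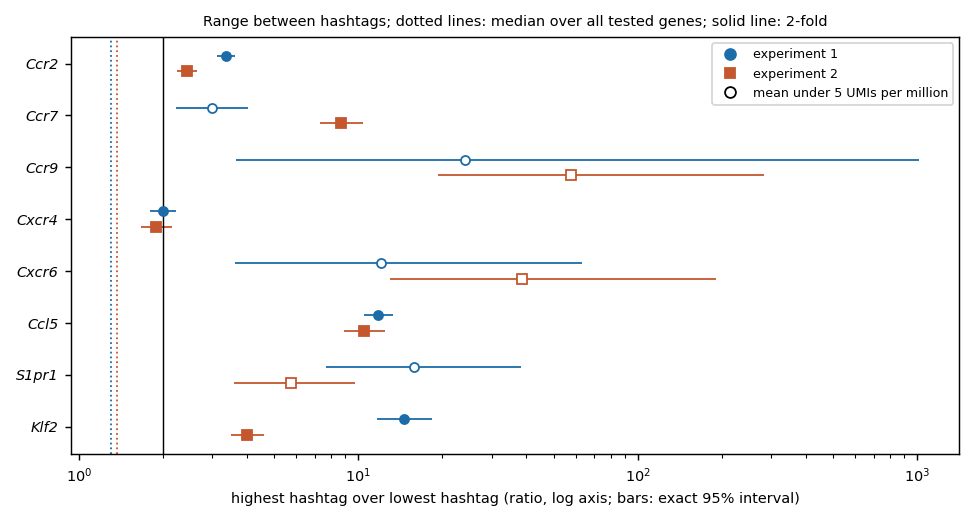
Ratio of the highest to the lowest hashtag for each gene (log axis, bars are exact 95% intervals), in experiment 1 (circles) and experiment 2 (squares); open symbols mark genes that averaged under 5 CPM. Ccl5 has ratios of 11.8 and 10.5, and the intervals of Cxcr4 span the solid 2-fold line in both experiments; dotted lines are the medians over all tested genes, 1.31 and 1.38.

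Ccr2, the receptor for CCL2, was lowest in hashtags 3 and 4 of experiment 1, at 39.1 and 37.9 CPM. The others there stood at 74.6, 79.4, 91.0, 101.5, 88.8 and 127.8 CPM in hashtags 1, 2, 5, 6, 7 and 8, so all lay above the low pair. The step from hashtag 1 down to hashtag 3 was 1.91-fold (1.78 to 2.04), while hashtags 3 and 4 did not differ beyond counting error. In experiment 2, Ccr2 was 66.8 CPM in hashtag 1, 58.8 in hashtag 5 and 27.4 to 52.0 in the other 6, with the lowest values in hashtags 4, 7 and 2. Ccr2 was detected in 28.0% to 63.6% of the cells of a hashtag in experiment 1 and in 17.3% to 55.2% in experiment 2. For comparison, 28.0% of the 207 stromal-like cells of experiment 2 held a Ccr2 UMI, at a median of 49959 UMIs per cell and a level of 18.0 CPM (15.5 to 20.7). That share is no floor, since these cells were deeper than other cells and some clusters were lower in Ccr2, down to 3.76 CPM in cluster 12.

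By cell class, Ccr2 was most concentrated in the innate lymphoid or NK-like cluster, at 496 CPM (470 to 524) over 158 cells of experiment 1 and 372 CPM (353 to 392) over 211 cells of experiment 2. The granulocyte or monocyte-like cluster 10 of experiment 2, led by Prg2, Ms4a3 and Prtn3, held 21.1% of all Ccr2 UMIs in 468 cells (5.61% of cells) at 127 CPM. With finer clustering or more variable genes, the share in clusters of that name was 8.41% or 8.05%. The maturing granulocyte-like cluster 12, led by Camp, Ngp and Ltf, had 3.76 CPM over 173 cells. Low levels were also found in clusters 4 and 6 of experiment 1, at 14.7 and 24.9 CPM. Both were led by Pgam2 and Gsn and came almost wholly from hashtags 3 and 4: 385 and 435 of 824 cells in cluster 4, and 428 and 414 of 846 in cluster 6. In T lineage-like cluster 2 of experiment 2, with 479 of its 600 cells from hashtag 4, Ccr2 was 5.77 CPM.

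Ccr2 differed between hashtags within clusters too, though less in some. In T lineage-like cluster 8 of experiment 1 its level ranged from 53.8 CPM in hashtag 7 to 74.4 in hashtag 6, and in cluster 1 from 45.5 to 71.7. In cluster 9, which has Ccr2 among its leading genes, it ranged from 72.0 CPM in hashtag 3 to 166 in hashtag 8.

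Ccr7, the receptor for CCL19 and CCL21, was low in every hashtag of experiment 1, between 2.58 CPM in hashtag 4 and 7.72 in hashtag 8 with a median of 4.58. In experiment 2 it stood at 5.37, 5.15, 11.4, 6.85, 20.0, 41.8, 9.52 and 44.8 CPM in hashtags 1 to 8. Hashtags 6 and 8 were high and did not differ from each other beyond counting error, and hashtag 5 came next at 2.09-fold (1.89 to 2.32) below hashtag 6. The highest-to-lowest ratio was 8.69 (7.30 to 10.4).

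Much of this range lay in few cells. A total of 48 cells held 50% of the 3908 Ccr7 UMIs of experiment 2, while 262 cells held 50% of the 979 UMIs of experiment 1. Dendritic-like cluster 5 of experiment 2, led by Ccl22 and Cd83, had 60.3% of the Ccr7 UMIs in 563 cells, at 219 CPM (211 to 228). Clustering at a finer resolution split off 66 cells, all with Ccr7 and together holding 51.9% of its UMIs at 2441 CPM. Beside Ccr7 this group was led by Ccl22, Apol7c, Cd83, Cacnb3, Il4i1 and Cxcl16, followed by Fscn1, Il12b, Cd40 and Ccl17. These are genes known from activated, migratory dendritic cells, but the fixed markers gave the group no name. Hashtag 6 contributed 29 of the 66 cells, hashtag 8 contributed 21, hashtag 5 contributed 9, and the other 5 hashtags 0 to 3 each.

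Outside those 66 cells, Ccr7 in hashtags 1 to 8 was 4.40, 2.90, 9.69, 6.85, 10.1, 11.8, 5.02 and 15.3 CPM. Hashtag 8 was still the highest, and the ratio to the lowest, hashtag 2, was 5.29 (4.14 to 6.82). The 8 dendritic markers summed to 709 CPM in hashtag 1 and up to 3261 in hashtag 5 of experiment 2, with none at 0 in all hashtags. Their part in the remaining range was not tested. Within T lineage-like cluster 7, Ccr7 ranged from 4.49 CPM in hashtag 4 to 16.04 in hashtag 8. Another group with Ccr7 was the innate lymphoid or NK-like cluster of experiment 1 at 38.8 CPM (31.6 to 47.0), with 10.5% of the UMIs of that experiment in 158 cells.

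**Figure D3:**
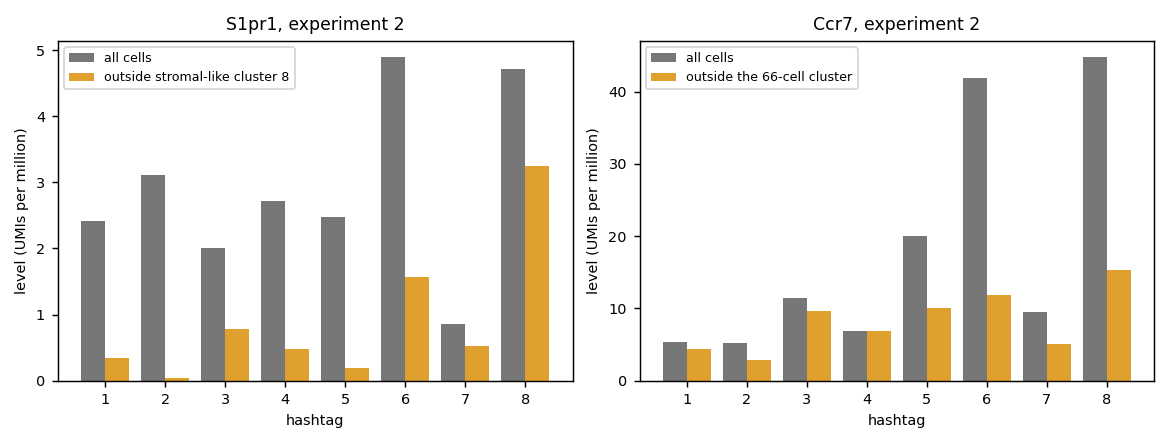
Level (CPM) in hashtags 1 to 8 of experiment 2 over all called cells (grey) and without 1 cluster (orange): S1pr1 without the 207 stromal-like cells and Ccr7 without the 66-cell cluster found at finer resolution. S1pr1 in hashtag 2 goes from 3.11 to 0.04 and Ccr7 in hashtag 6 from 41.8 to 11.8.

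Ccr9, the receptor for the thymic chemokine CCL25, gave 45 UMIs in 24 of 8797 cells of experiment 1, at 0.03 to 0.63 CPM per hashtag. No neighbours in the order of hashtags differed beyond counting error there. In experiment 2 it reached 5.05 CPM in hashtag 4, 3.86 in hashtag 8 and 1.61 in hashtag 7, against 0.09 to 0.90 in the other 5. The step from hashtag 8 to hashtag 7 was 2.39-fold (lower bound 1.61), and hashtags 4 and 8 did not differ beyond counting error. All 24 UMIs of hashtag 6 came from a single cell.

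The UMIs of hashtags 4 and 8 lay in different clusters. T lineage-like cluster 2, led by Pgam2 and Themis with Bcl11b and Cd3g, held 122 of the 132 Ccr9 UMIs of hashtag 4 and 479 of its cells (40.9%), at 13.0 CPM over the cluster. None of the 86 UMIs of hashtag 8 were there, and that hashtag had no cell in the cluster. T lineage-like cluster 7, with 567 cells of hashtag 7 and 298 of hashtag 8, held 39.7% of all Ccr9 UMIs at 4.31 CPM, among them 79 of the 86 of hashtag 8. There Ccr9 was 9.39 CPM in hashtag 8 and 3.16 in hashtag 7. A further 8 UMIs in 40 cells, 9.38 CPM (4.05 to 18.5), came from the dendritic-like cluster 6 led by Xcr1 and Clec9a.

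Cxcr4, the receptor for CXCL12, had the narrowest range of the genes that passed the filter. In experiment 1 it stood at 29.2, 32.6, 40.7, 38.3, 36.1, 35.2, 20.3 and 23.3 CPM in hashtags 1 to 8, highest in 3 and 4 and lowest in 7 and 8. In experiment 2 the values were 23.9, 28.1, 19.1, 28.6, 24.9, 18.6, 22.9 and 15.1 CPM, lowest in hashtag 8. Of the 7 steps between neighbours in the order, 2 exceeded counting error in experiment 1 and 3 in experiment 2. Cxcr4 was also the most evenly spread over cells: 1240 and 1005 cells held 50% of its UMIs, and no cell had more than 12.

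Clusters high in Klf2 included some of the lowest in Cxcr4. In the innate lymphoid or NK-like clusters it was 16.6 CPM (12.03 to 22.2) and 7.00 CPM (4.61 to 10.2), and in cluster 1 of experiment 2, led by Gzmc, Cd8b1 and Trac, it was 6.62 (upper bound 9.40). In unnamed cluster 2 of experiment 1, led by Sh2d1a, AA467197 and Capg, it was 14.1 CPM (12.1 to 16.3), against 47.3 (44.6 to 50.2) in cluster 4. Cluster 2 came mostly from hashtag 7 (582 of 815 cells) and hashtag 8 (216). Across the 8 hashtags Cxcr4 and Klf2 had a Pearson r of -0.93 in experiment 1 and -0.51 in experiment 2 on log2(CPM + 1), where each point is 1 hashtag of 1 pooled library. Hashtags 7 and 8 of experiment 1 stood apart in both genes.

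Cxcr6, the receptor for CXCL16, was found in few cells, 44 in experiment 1 and 133 in experiment 2. In experiment 1, 80 of its 87 UMIs (92.0%) lay in the innate lymphoid or NK-like cluster of 158 cells, at 30.1 CPM (23.9 to 37.5). Outside that cluster it was at most 0.07 CPM in any hashtag. In experiment 2, the innate lymphoid or NK-like cluster of 211 cells held 46.8% of 331 UMIs at 40.2 CPM (34.1 to 47.0). The unnamed Gzmc-led cluster 1, whose leading genes include the mature T-cell genes Cd8b1 and Trac, held another 38.7% in 164 cells at 27.4 CPM (22.8 to 32.5).

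By hashtag, Cxcr6 was 0.47, 0.81, 1.59, 4.93, 0.38, 1.01, 0.13 and 2.42 CPM in experiment 2, highest in hashtag 4 at 2.04-fold (1.47 to 2.85) above hashtag 8. Hashtag 4 had 106 of the 164 cells of cluster 1, with 68 Cxcr6 UMIs at 25.1 CPM, against 31.5 CPM in hashtag 3 there. A further 57 UMIs of hashtag 4 lay in 31 cells of the innate lymphoid or NK-like cluster, at 129 CPM (97.4 to 167). In that cluster hashtags 3, 5, 6 and 8 had 14.9 to 24.8 CPM. The 4 mature T-cell markers summed to 133 CPM in hashtag 4, 34.3 in hashtag 3 and 1.27 to 17.9 in the others, and their part in the Cxcr6 value was not tested. In experiment 1 the highest hashtag, 7, had 22 UMIs (0.99 CPM) and the lowest, 2, had 3 (0.08 CPM), a ratio of 12.1 with an interval of 3.64 to 63.2.

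**Figure D4:**
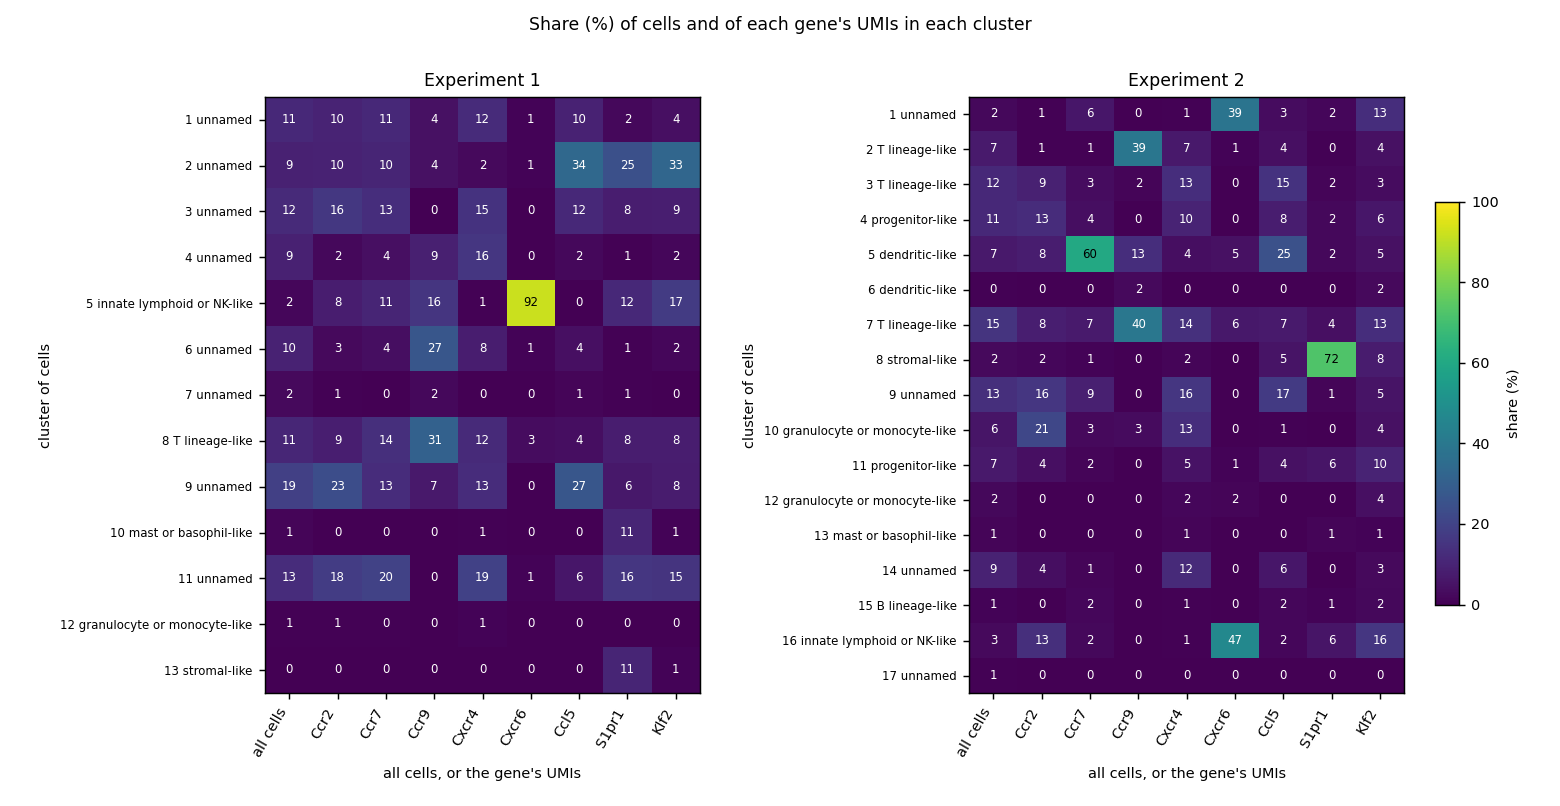
Share (%) of all cells (first column) and of the UMIs of each gene that lay in each cluster (rows, with the class named from markers), for experiment 1 (left) and experiment 2 (right). Cxcr6 (92% in cluster 5 of experiment 1), S1pr1 (72% in the stromal-like cluster of experiment 2) and Ccr7 (60% in a dendritic-like cluster of experiment 2) stand out from the even spread of Cxcr4.

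Ccl5 ranged widely in both experiments, with ratios of 11.8 (10.5 to 13.3), below that of Klf2 in experiment 1, and 10.5 (8.87 to 12.4), the highest of the 5 genes past the filter in experiment 2. In experiment 1 it was 18.9, 17.8, 11.5, 10.7, 34.5, 51.1, 82.8 and 126 CPM in hashtags 1 to 8, so hashtags 1 to 4 were all below 5 to 8. Without hashtag 8 the ratio was 7.75. In experiment 2 the values were 6.04, 5.44, 46.2, 28.2, 41.3, 56.9, 25.8 and 31.9 CPM, and hashtags 1 and 2 were at least 4-fold below every other hashtag, with a step of 4.27-fold (3.64 to 5.03) from hashtag 7 down to hashtag 1. When every cell weighed the same, by a mean over cells of each cell's CPM, the ratio of experiment 2 was 22.4.

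Ccl5 was uneven among cells as well, with up to 131 UMIs in 1 cell of experiment 1 and 304 in 1 of experiment 2, where 81 cells held 50% of its 7091 UMIs. In experiment 1, cluster 2 (from hashtags 7 and 8) had 210 CPM (202 to 218) and 33.8% of the UMIs, and cluster 9 had 56.4 CPM and 26.9%. Ccl5 is itself a leading gene of both. The difference between hashtags was also present within clusters, to an uneven extent. Ccl5 in cluster 1, led by histone genes, ranged from 10.5 CPM in hashtag 4 to 109 in hashtag 8. In cluster 3, led by mitotic genes, it ranged from 11.1 to 97.0 in the same pair. Hashtag 8 had only 29 cells in cluster 1 and 32 in cluster 3. In T lineage-like cluster 8 the range was narrower, 8.41 to 24.5 CPM, against 19.3 to 142 in cluster 9 and 1.91 to 44.6 in cluster 11. In experiment 2, the 66 cells rich in Ccr7 had 1558 CPM of Ccl5 and 18.3% of its UMIs. Without them hashtag 3 was the highest at 45.8 CPM, hashtag 6 stood at 33.1 and hashtag 2 was still the lowest at 5.23, a ratio of 8.76 (7.41 to 10.4).

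S1pr1, the receptor for exit from thymus and bone marrow, was near 0 in hashtags 1 to 6 of experiment 1 (0.21 to 0.59 CPM, 7 to 12 UMIs each) and stood at 3.33 CPM in hashtag 7 and 2.69 in hashtag 8 (74 and 39 UMIs). The step from hashtag 8 to hashtag 5 was 4.59-fold (2.35 to 9.63). In experiment 2 it was 2.42, 3.11, 2.01, 2.72, 2.48, 4.90, 0.85 and 4.71 CPM, lowest in hashtag 7. Without that hashtag the ratio of 5.77 became 2.43.

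In experiment 2 most S1pr1 was in stromal-like cells. The stromal-like cluster 8, led by Col1a2, Sparc and Col1a1, held 474 of the 655 S1pr1 UMIs (72.4%) in 207 of 8335 cells, at 43.5 CPM (39.7 to 47.6). CD45 mRNA (Ptprc) was detected in 66.7% of these cells at 81.0 CPM although the sort was for CD45+ cells, against 93.7% and 168 CPM in T lineage-like cluster 7. Their median of 49959 UMIs was the highest of the 17 clusters. Outside this cluster S1pr1 was 0.33, 0.04, 0.77, 0.48, 0.18, 1.56, 0.52 and 3.25 CPM in hashtags 1 to 8, so hashtag 8 was the highest and hashtag 2, with 1 UMI left, the lowest. The 9 stromal markers summed to between 158 CPM (hashtag 7) and 810 CPM (hashtag 2), none of them at 0 in all hashtags.

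In experiment 1 the stromal-like cluster had only 16 cells, with 18 of the 171 S1pr1 UMIs. Hashtags 7 and 8 together contributed 5 of these cells, and the stromal markers summed to 69.7 and 65.9 CPM there against 71.6 in hashtag 4, which had 0.35 CPM of S1pr1. The unnamed cluster 2 held 24.6% of the UMIs at 3.32 CPM (2.39 to 4.49), and the innate lymphoid or NK-like cluster 11.7% at 7.53 CPM (4.60 to 11.6). The mast or basophil-like cluster had as many S1pr1 UMIs as the stromal-like one, 18 in 113 cells at 6.68 CPM (3.96 to 10.55). In the innate lymphoid or NK-like cluster of experiment 2, S1pr1 was 9.59 CPM (6.75 to 13.2).

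Klf2 followed the same hashtags in experiment 1, at 5.07, 4.99, 3.50, 2.74, 6.94, 6.13, 40.0 and 24.2 CPM. Hashtags 7 and 8 lay apart from the rest, 3.49-fold (2.86 to 4.27) from hashtag 8 down to hashtag 5. The whole ratio was 14.6 (11.7 to 18.4), and 8.82 without hashtag 7. The 6 erythroid markers were also highest in hashtags 7 and 8, at 3289 and 3246 CPM in sum against 571 to 2518 in the other 6, with none at 0 in all hashtags, and their part in the Klf2 and S1pr1 values was not tested. Hashtags 7 and 8 were also the shallowest of experiment 1, with medians of 18058 and 20809 UMIs per cell against 23086 to 29606 in the other 6, and the part of depth was not tested either. In experiment 2, Klf2 was 13.8, 10.2, 11.2, 29.1, 13.1, 30.3, 14.2 and 40.8 CPM, with hashtags 4, 6 and 8 at least 2-fold above every other.

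High Klf2 in hashtag 7 of experiment 1 was found inside clusters, not only through cluster 2. Of 6 clusters with at least 20 cells of both hashtag 7 and hashtag 8, and of at least 1 other hashtag, hashtag 7 was above each of hashtags 1 to 6 in clusters 3, 8, 9 and 11. In cluster 5 it was above hashtag 6, the only other one with enough cells there. Hashtag 8 was above the same hashtags in clusters 3, 5, 9 and 11, but not in cluster 8 or cluster 1. In T lineage-like cluster 8, hashtag 7 had 21.0 CPM and hashtag 8 had 7.27, inside the 4.02 to 8.10 of hashtags 1 to 6. In cluster 11, led by Ms4a4c and Tgfbi, hashtag 7 had 27.9 against 1.32 to 8.25. In mitotic cluster 3, where hashtag 7 had only 20 cells, it had 19.4 against 2.28 to 7.22. In the histone-led cluster 1, where hashtag 7 also had 20 cells, it had 1.71 and hashtag 8 had 3.98. Both lay inside the 0.55 to 5.43 of the others. The highest Klf2 levels by class were in innate lymphoid or NK-like cells, at 139 CPM (125 to 154) and 182 CPM (168 to 196), the Gzmc-led cluster 1 of experiment 2 at 124 (114 to 135) and the Xcr1 and Clec9a-led dendritic-like cluster 6 at 124 (102 to 150).

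**Figure D5:**
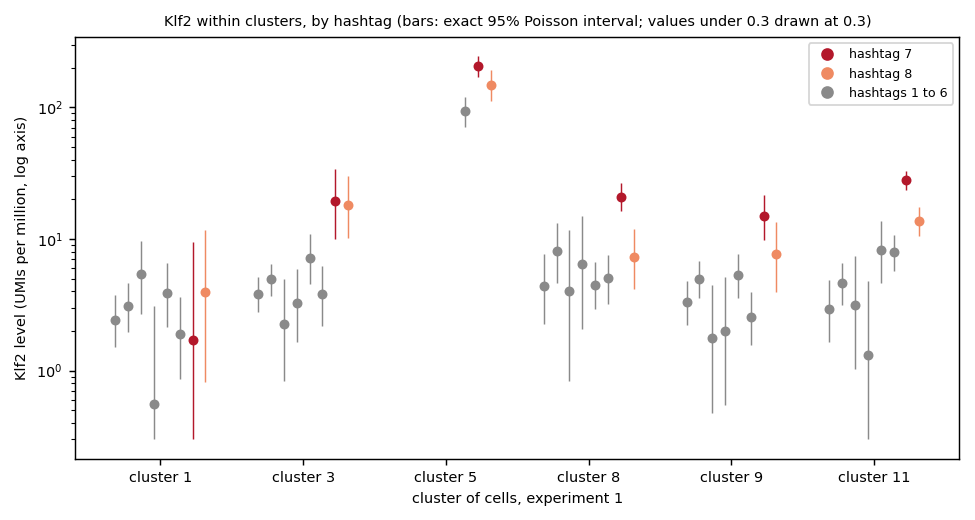
Klf2 level (CPM, log axis) in each hashtag within clusters of experiment 1 that had at least 20 cells of 3 or more hashtags, leaving out the shallow cluster 7, with exact 95% Poisson intervals. Hashtag 7 (dark red) is above hashtag 8 (salmon) and above each of hashtags 1 to 6 (grey) that is drawn in clusters 3, 5, 8, 9 and 11, but not in cluster 1; in cluster 5 only hashtag 6 of the grey set is drawn.

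Pairs of the genes were then compared within single cells. Cells were thinned to 10000 UMIs each, which left 8224 and 7746 cells, and the number with both genes was set against the number expected if detection were independent within each hashtag. S1pr1 and Klf2 were found together in 24 cells against 10.4 expected in experiment 1 (2.30 times) and in 40 against 19.5 in experiment 2 (2.05 times). Cxcr6 and Klf2 were found together in 11 against 2.66 and in 51 against 10.9 cells, so 69.9% of the Cxcr6 cells of experiment 2 also held Klf2. Cxcr6 and Ccr2 co-occurred in 2.05 and 2.07 times the number under independence. Cxcr4 and Cxcr6 (3 against 4.27 and 6 against 14.7) and Cxcr4 and S1pr1 (11 against 13.5 and 12 against 22.7) were found together in fewer cells than that number. In experiment 1 these differences amount to few cells. Cell class was not held constant in the expected numbers. Klf2 was detected, at full depth, in 24.4% of all called cells of experiment 2. There it was detected in 57.5% of stromal-like cluster 8, which held 72.4% of the S1pr1 UMIs. It was detected in 72.5% of the innate lymphoid or NK-like cluster and 76.2% of cluster 1, which held 46.8% and 38.7% of the Cxcr6 UMIs. The part of cell class was not tested, and no test was made of any of these numbers.

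Over the hashtags, the genes most like a member were ranked by the smaller of the 2 Pearson correlations (8 hashtags in each experiment) among 6896 genes. For Ccl5 these were Socs1 (r 0.99 and 0.94), which restrains cytokine signalling, the interferon-induced GTPase gene Ifi47 (0.93 and 0.95) and Gm12216. For Klf2 they were Msn (0.97 and 0.96), which encodes the cytoskeletal linker moesin, Col4a3bp and March2. For Cxcr4 they were Acly, Lamtor4 and Mvk, and for Ccr2 Taf1d, Fbxl6 and Fam49b. Socs1 ranged as widely as a member, from 18.8 to 114 CPM in experiment 1, whereas Msn ranged only from 194 to 257. The r values were picked as the highest among 6896 genes over 8 hashtags per experiment. How high they would be by chance was not tested.

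Levels were also set against Kit, which marks the earliest progenitors, and Il2ra, which encodes CD25 and comes on at the next stage. In experiment 1, Ccr2 was 76.3 CPM in cells with Kit only, 70.5 with both, 77.2 with Il2ra only and 92.8 with neither, a narrow range. Klf2 was 7.54, 8.17, 16.7 and 11.98 CPM in the same order, and Ccl5 was 22.8, 30.5, 61.9 and 58.3. In experiment 2, Ccr9 was 0.61, 1.23, 2.31 and 1.82 CPM, and Ccr7 was 10.9, 8.29, 15.6 and 34.5. Cxcr4 stayed between 22.2 and 23.6 CPM in all 4 in that experiment. Detection of Kit and Il2ra depends on depth, and the median depth of these groups was 21172 to 28932 UMIs. The groups were drawn from all called cells, whatever their class, so stage and cell class cannot be told apart in them. The 66 Ccr7-rich cells, with 51.9% of the Ccr7 UMIs of experiment 2, were not set apart.

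Between the experiments, which differ in culture time, library and mix of cultures at once and cannot be told apart on these, Ccr7 was higher in experiment 2 over all called cells, with a ratio of 3.796 (3.54 to 4.08). It was the only one of the 5 members past the filter with a 2-fold difference, among 1.86% of 8770 genes that were 2-fold higher and 0.342% that were 2-fold lower. Without the 66 Ccr7-rich cells of experiment 2 the ratio was 1.83 (1.69 to 1.98), and 0 of the 5 members then reached 2-fold. Klf2 was 1.99-fold higher (1.89 to 2.09), just under that threshold. Ccr2 had a ratio of 0.617 (0.602 to 0.632), Cxcr4 0.692 (0.668 to 0.717) and Ccl5 0.858 (0.830 to 0.886). The hashtags of the experiments overlapped in all 8 genes. Without hashtag 7 of experiment 1 the Klf2 ratio was 3.07. S1pr1, below the filter, had a ratio of 3.64 (3.07 to 4.34), which was 5.78 without that hashtag and 1.18 (0.94 to 1.47) without the stromal-like cells of both experiments (16 and 207 cells), where its levels were 0.69 and 0.82 CPM.

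Among other genes of chemotaxis and exit, 60 of 62 listed were in the files and 36 passed the filter in experiment 1 and 39 in experiment 2. Of these, 17 and 22 had a highest hashtag at least 2-fold above the lowest, with median ratios of 1.85 and 2.36, against 10.8% and 17.4% of all tested genes and medians of 1.31 and 1.38. These lists too were chosen with earlier results of these data known, so the contrast is a description only. The chemokine receptor gene Cxcr5 ranged from 9.58 to 27.8 CPM in experiment 1. Of the chemokines that passed, 3 of 4 and 7 of 8 reached 2-fold. Cxcl12, the CXCR4 ligand made by stroma, ranged from 0.74 CPM in hashtag 1 to 27.7 in hashtag 7 of experiment 1. It was 2198 CPM in the 16 stromal-like cells of that experiment, and 14.5 in cluster 2, the next highest. Hashtag 1 had 0 of these stromal-like cells and hashtag 7 had 3, and their part in the range was not tested. Xcl1, which encodes lymphotactin, reached 176 CPM in hashtag 4 of experiment 2. The thymic chemokine gene Ccl25 did not reach 2-fold, with ratios of 1.36 and 1.27.

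Adhesion genes had 4 of 10 and 6 of 10 at 2-fold, led by Itgae, the E-cadherin-binding integrin, which was highest in hashtag 4 of both experiments (17.5 and 25.5 CPM). The genes of egress and sphingosine phosphate had 4 of 8 in each experiment. Gpr183, the oxysterol receptor, was highest in hashtag 4 of both experiments (34.2 and 30.8 CPM), and Sgpl1, which degrades sphingosine phosphate, went from 2.36 to 10.5 CPM in experiment 1. For Itgae and Gpr183, hashtag 4 need not be the same culture in the 2 experiments. Among regulators of receptor signalling and of Klf2, 4 of 11 and 3 of 11 reached 2-fold. Beside these counts stand the 10.8% and 17.4% of all tested genes, and 3 of 11 in experiment 2 is not far from that share. Rgs1, which dampens chemokine receptor signals, was highest in hashtag 7 of experiment 1 (82.0 CPM, against 9.28 in hashtag 4), as were Klf6 at 98.6 CPM and Klf3 at 35.5 CPM.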

How the data were processed

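The authors deposited raw UMI counts per gene and cell and raw hashtag counts per cell. Cell Ranger 3.0.0 and the builds mm10 and GRCm38 are named in the submitters' processing notes, with 10x Chromium v3 chemistry per the labels' protocols. Deposited lists of genes and barcodes, and hashtag column names, hold other content than measurements. Barcodes with fewer than 500 genes or with 10% or more of their UMIs mitochondrial were removed (635 and 342). A cell took a hashtag with at least 50 counts and at least 3 times the next, and the 535 and 1879 cells without a call were left out. How many doublets between cultures remained was not measured, and no other doublet caller was run. With a top hashtag at least 10 times the second, 8668 of 8797 called cells were kept in experiment 1 and 5769 of 8335 in experiment 2. Levels are summed counts per 1000000 UMIs, and a lowest hashtag at 0 UMIs was set to 3 UMIs. Intervals are exact Poisson (levels), Clopper-Pearson (shares) or conditional (ratios).

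Cells were clustered with scanpy 1.11.5 (2000 variable genes, 30 components, 15 neighbours, Leiden resolution 0.5). A cluster got a class name when 3 or more of that class's markers were in its top 50 genes, no other class tied or had more in the top 10, and its depth was not low; otherwise it stayed unnamed. Alternatives covered HTODemux in Seurat 5.3.0, stricter and looser cell and tag filters, TMM scaling in edgeR 4.0.16, per-cell means, thinning and leaving out hashtags. The ratio rule was tested on simulated data. The 8 genes and the gene lists were chosen with earlier results of these data known. The named genes were the 8, the 3 most alike to each that passed, and the 3 of each list with the largest ratio in each experiment, of which some are not reported here; Ccl25, Fscn1 and other leading genes of clusters were named after their values were seen. The 16 hashtag columns were mapped to no condition, so no test between groups was run.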

Additional observations from a re-analysis of the deposited data

Results flagged for a closer look

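Barcodes without a hashtag call entered no comparison above, and 5 values there lay beyond the interval of the highest hashtag. S1pr1 was 44.5 CPM (30.4 to 62.8) over 39 barcodes of experiment 1 whose top hashtag had under 50 counts, against 3.33 in the highest hashtag. In experiment 2 it was 28.4 CPM (25.6 to 31.5) over 638 such barcodes and 21.8 CPM (14.0 to 32.4) over 342 barcodes that failed the cell filter, against 4.90. Cxcr4 was 98.7 CPM (86.0 to 113) over the 635 barcodes of experiment 1 that failed the filter, against 40.7. Ccl5 was 71.8 CPM (69.5 to 74.2) over 1241 barcodes of experiment 2 whose top hashtag was under 3 times the second, against 56.9. The cause was not tested. No single hashtag stood apart from the other 7 by Dixon's test in any of the 16 gene and experiment pairs; the nearest was Cxcr6 in hashtag 4 of experiment 2, whose gap to the next was 0.522 of the whole range, just under the critical value.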

How the results depend on the processing

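No paired analysis was possible because hashtags carry no condition. The count of members with a 2-fold range was 4 in both experiments. With no filter on low values it became 8 and 7, against 28.6% and 34.2% of all genes with a UMI. In experiment 1 it was 3 with every deposited barcode (10.9% of all tested genes) or with the lower bound at 2-fold or above (7.77%). In experiment 2 it was 5, with Cxcr4 passing, with a top hashtag 10 times the second (17.9%), with thinning (31.4%) and over cell means (20.8%). Leaving out 1 hashtag gave 3 to 4 in experiment 1 and 4 in experiment 2. The share of all tested genes was then 8.98% to 10.8% and 15.2% to 17.3%. The 2-fold count between experiments went from 1 to 2, as Klf2 passed the threshold, with HTODemux, with a stricter cell filter (1000 genes, 5% mitochondrial), with TMM and without the 5 cells richest in the gene in each hashtag; leaving out 1 hashtag gave 1 to 2. It went to 0 without the 66 Ccr7-rich cells of experiment 2 and stayed at 1 without the stromal-like clusters, both chosen after seeing the data. Ccl5 between experiments reversed, from 0.858 to 1.06 with the stricter cell filter and to 1.01 and 1.04 without hashtag 7 or 8 of experiment 1 (0.758 to 1.04 over all hashtags left out). Of 128 hashtag ratios with 1 hashtag left out, 117 stayed inside the interval reported and 11 did not. A ratio cannot change unless its highest or lowest hashtag is left out, so most of the 117 were fixed in advance. Under other settings 125 of 172 stayed inside (2 of these settings were chosen after seeing the data: without the leading cluster at either resolution).

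Thinning to 3000 UMIs raised the background from 945 to 2044 and from 1529 to 2765 genes (23.2% and 31.4% of those tested). With no filter it was 5419 of 18957 and 6665 of 19488 genes. The S1pr1 ratio of experiment 1 (15.9) ranged from 5.80 with thinning to 97.6 with the stricter filter, since its low hashtags had 7 to 12 UMIs. The Ccr7 ratio of experiment 2 (8.69) was 13.8 with HTODemux, 15.3 with thinning and 16.4 over cell means, and its ratio between experiments (3.796) was 7.47 with thinning. The share of Ccr7 UMIs in clusters named dendritic-like was 60.3%, and 6.70% at resolution 1.0 and 0.03% without the 5% of cells with most UMIs, where the Ccr7-rich cells formed an unnamed cluster. With 1 library per experiment, hashtags of unknown condition and few UMIs of Ccr9, Cxcr6 and S1pr1, the intervals do not cover differences between cultures.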
